A study of Mus musculus with 7 samples.

Results

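Small nucleolar RNAs and small Cajal body RNAs were followed in RNA from cloned mouse embryos. The members are the rows of the expression table whose gene symbol starts with Snora, Snord or Scarna and whose deposited value was above 0 in 2 or more of 7 libraries, so the members were chosen by measured values. Of 24319 rows in the table, 114 carry such a symbol and 13 met the rule: 10 H/ACA box RNAs (Snora), 1 C/D box RNA (Snord17) and 2 small Cajal body RNAs (Scarna13 and Scarna6). The rule itself used the values, so how often a member was above 0 over all libraries is a description and no finding.

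The embryos were clones, made by injecting cumulus cells into enucleated oocytes (SCNT). Every group received mRNA of Kdm4a, a demethylase of histone H3 lysine 9, and all libraries carry the strain label B6D2F1, the genotype label of wild type and the 2-cell stage. CROC+K+M embryos came from cryopreserved (vitrified and warmed) oocytes and were treated with melatonin, given as 10 µM (2 libraries). CROC+K embryos came from cryopreserved oocytes without melatonin (3 libraries), and FOC+K embryos are those whose labels name no cryopreservation, read here as fresh oocytes (2 libraries). The labels do not say which libraries had a vehicle, and the treatment protocol mentions blastocysts beside the 2-cell stage. Each library is a pool of embryos that the labels call a biological replicate, so p-values measure the spread between such pools.

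H/ACA box RNAs guide the conversion of uridine to pseudouridine, and C/D box RNAs guide the methylation of the ribose, mostly in ribosomal RNA. Small Cajal body RNAs guide the same reactions in spliceosomal RNAs. In mammals most of them are cut out of introns of host genes, and the mature forms carry no poly(A) tail, while the SMARTer cDNA kit named in the labels starts from poly(A) tails.

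The sequences of 4 RNAs show the boxes that define the classes. They were chosen as Snora47, the member past the test in 2 comparisons, Snora21, the H/ACA member next in mean level, Scarna13, the longest member, and Snord17, the C/D member. They are the transcripts of GENCODE M21 on build GRCm38, at chr13:95330600-95330737 on the plus strand for Snora47, and on the minus strand at chr11:97781639-97781775 for Snora21, chr12:105031075-105031349 for Scarna13 and chr2:144265979-144266216 for Snord17. Capitals mark a match to the H box pattern ANANNA nearest the middle and the last ACA box in Snora47 and Snora21, the last ACA in Scarna13, and the C box TGATGA and the last CTGA (D box) in Snord17.
Snora47: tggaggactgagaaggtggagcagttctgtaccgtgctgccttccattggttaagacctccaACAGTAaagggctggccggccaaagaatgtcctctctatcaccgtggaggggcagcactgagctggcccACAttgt
Snora21: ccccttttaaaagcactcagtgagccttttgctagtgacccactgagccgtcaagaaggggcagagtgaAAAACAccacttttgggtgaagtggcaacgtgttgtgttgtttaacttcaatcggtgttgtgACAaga
Scarna13: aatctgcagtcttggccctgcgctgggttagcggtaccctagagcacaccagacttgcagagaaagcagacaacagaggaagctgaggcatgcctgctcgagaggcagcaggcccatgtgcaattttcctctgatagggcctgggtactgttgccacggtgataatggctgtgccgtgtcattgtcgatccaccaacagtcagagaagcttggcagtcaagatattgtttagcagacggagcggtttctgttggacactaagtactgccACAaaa
Snord17: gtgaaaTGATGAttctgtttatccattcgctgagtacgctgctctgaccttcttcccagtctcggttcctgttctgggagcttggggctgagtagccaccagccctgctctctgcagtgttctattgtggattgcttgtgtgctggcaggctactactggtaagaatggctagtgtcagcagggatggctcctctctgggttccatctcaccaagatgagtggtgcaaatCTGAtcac
The letters were searched on the RNA strand only, and a match is a description of the letters. In the annotation, ACA stood 3 bases from the end in 34 of 40 Snora transcripts (85%) and in 0 of 97 Snord transcripts. TGATGA together with CTGA stood in 73 of 97 Snord transcripts (75.3%) and in 0 of 40 Snora transcripts. In Snora47 the last ACA is followed by 4 bases, and in Snora21 and Scarna13 by 3.

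The classes were detected unevenly. Among the H/ACA rows 10 of 36 were members (27.8%), among the Cajal body rows 2 of 9 (22.2%) and among the C/D rows 1 of 69 (1.45%). Over all 114 rows, 13 were members (11.4%), 7 were above 0 in exactly 1 library and 94 were at 0 in every library. No row was above 0 in all 7 libraries.

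RefSeq (GRCm38.p6) gave a length for 113 of the 114 rows, with a median of 120 bases for H/ACA rows (56 to 198), 68 bases for C/D rows (45 to 221) and 118 bases for Cajal body rows (42 to 275). The shortest row above 0 in any library was Snora33, at 105 bases. By that choice of length none of the 73 shorter rows was above 0, and of the 40 rows of at least 105 bases 20 were. Of the C/D rows with a length, 64 were shorter than 105 bases, against 5 H/ACA rows. Of the 4 other C/D rows 3 were above 0 and 1 was a member. Of the H/ACA rows of at least 105 bases, 15 of 31 were above 0 and 10 were members. The 3 rows over 200 bases, Snord17, Scarna6 and Scarna13, were all members. In other small RNA rows, which did not set that length, 0 of 970 rows shorter than 105 bases and 14 of 203 rows of at least 105 bases were above 0. The gap in detection between the H/ACA and C/D classes cannot be told apart from their lengths.

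**Figure D1:**
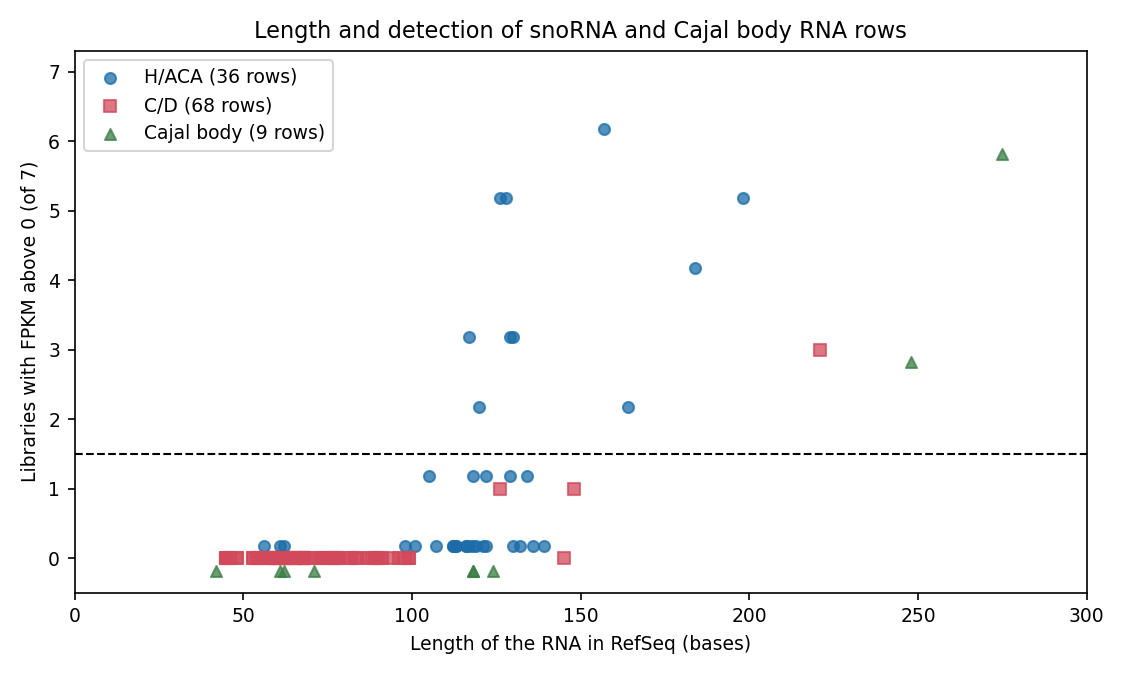
Length of each Snora, Snord and Scarna row in RefSeq (bases, x axis) against the number of libraries in which its FPKM was above 0 (y axis, of 7), by class, with the classes set slightly apart in height. The dashed line is the edge of the rule, and the shortest row above 0 in any library, Snora33, has 105 bases.

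Values are FPKM (fragments per kilobase of transcript, scaled to the mapped fragments), a level per length. For RNAs of this length a single fragment is worth a large FPKM, and the worth falls as length grows. Among low genes the ratios between 2 libraries piled up at 1 value, which was taken as their relative depth, with FOC+K 1 set to 1. It was 1.26 and 1.56 in CROC+K+M, 1.15, 1.14 and 1.06 in CROC+K, and 1 and 1.38 in FOC+K. At the depth of FOC+K 1, the smallest value seen for a row came to 71.7 FPKM for Snora64 (117 bases), 54.6 for Snora47 (126 bases), 4.95 for Snora74a (198 bases) and 2.04 for Scarna13 (275 bases). Of 47 member values above 0, with Snora24 left out, 23 were under 1.5 times the member's own smallest value after scaling to depth. Only 1 was over 5 times it, at 9.24 times for Scarna13 in CROC+K+M 1. A member's smallest depth-scaled value, called a step here, is read as about 1 fragment, which the table does not state. Some values are no whole number of steps, and those of Snora24 lie below 1 step of rows of like length. The length correction in each library is also unknown, so the members are treated as detection more than as level.

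**Figure D2:**
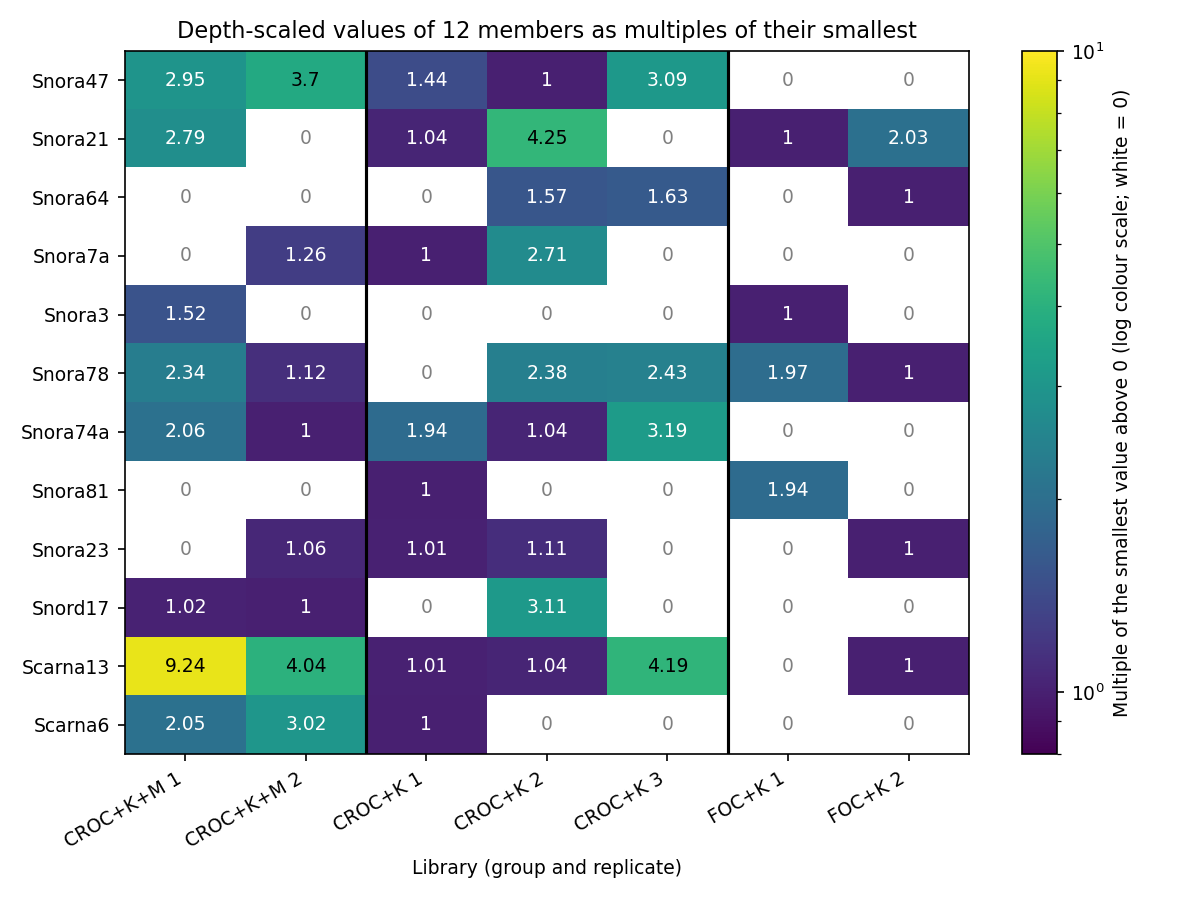
Values of 12 members (rows) in the 7 libraries (columns, by group), scaled to relative depth and divided by the member's smallest value above 0, printed in each cell with a log colour scale and white at 0. Of 47 values above 0, 23 are under 1.5 and 1 is over 5.

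The libraries differed in other ways that bear on all members. Kdm4a mRNA ranged over 497 to 4949 FPKM in the 7 libraries, and the groups, all of them injected, overlapped. Rn45s, the precursor of ribosomal RNA, stood at 224 and 175 FPKM in CROC+K+M, 2114, 266 and 237 FPKM in CROC+K, and 1183 and 1047 FPKM in FOC+K. The summed FPKM of 9 trophectoderm markers was 26604 in CROC+K+M 1, with 0 of 9 at 0, and 10.3 to 32.2 in the 6 other libraries, with 1 to 3 of 9 at 0. That library thus stands apart from its 2-cell label. The 9 cumulus cell markers summed to 13.5 to 32.4 FPKM in every library, with 2 to 4 of 9 at 0. The 8 markers of maternal oocyte RNA summed to 596 and 577 FPKM in CROC+K+M, 1098, 851 and 807 FPKM in CROC+K, and 914 and 862 FPKM in FOC+K. The 8 markers of the 2-cell stage summed to 377 and 151 FPKM in CROC+K+M, 152, 779 and 1104 FPKM in CROC+K, and 439 and 184 FPKM in FOC+K, with none at 0. The part of these differences in the members' values was not tested. In such pools, fewer cells of a type and less RNA per cell cannot be told apart.

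Members above 0 numbered 9 and 8 in CROC+K+M, 9, 9 and 5 in CROC+K, and 5 and 5 in FOC+K. CROC+K 3 thus matched the FOC+K libraries, and FOC+K 2, with 5 members, was deeper than all CROC+K libraries. The members' FPKM summed to 321 and 184 in CROC+K+M, 154, 399 and 317 in CROC+K, and 134 and 116 in FOC+K. Both FOC+K sums lay below all others, and these sums rest on few fragments. That order rests on Snora47, which was at 0 in FOC+K, at 129.7 FPKM in CROC+K+M 2 and at 68.3 FPKM in CROC+K 1. Without Snora47 the sums of those libraries fall below both FOC+K sums. The FPKM of all rows also differed, from 552356 in FOC+K 2 and 585039 in FOC+K 1 to 1017995 in CROC+K+M 1.

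**Figure D3:**
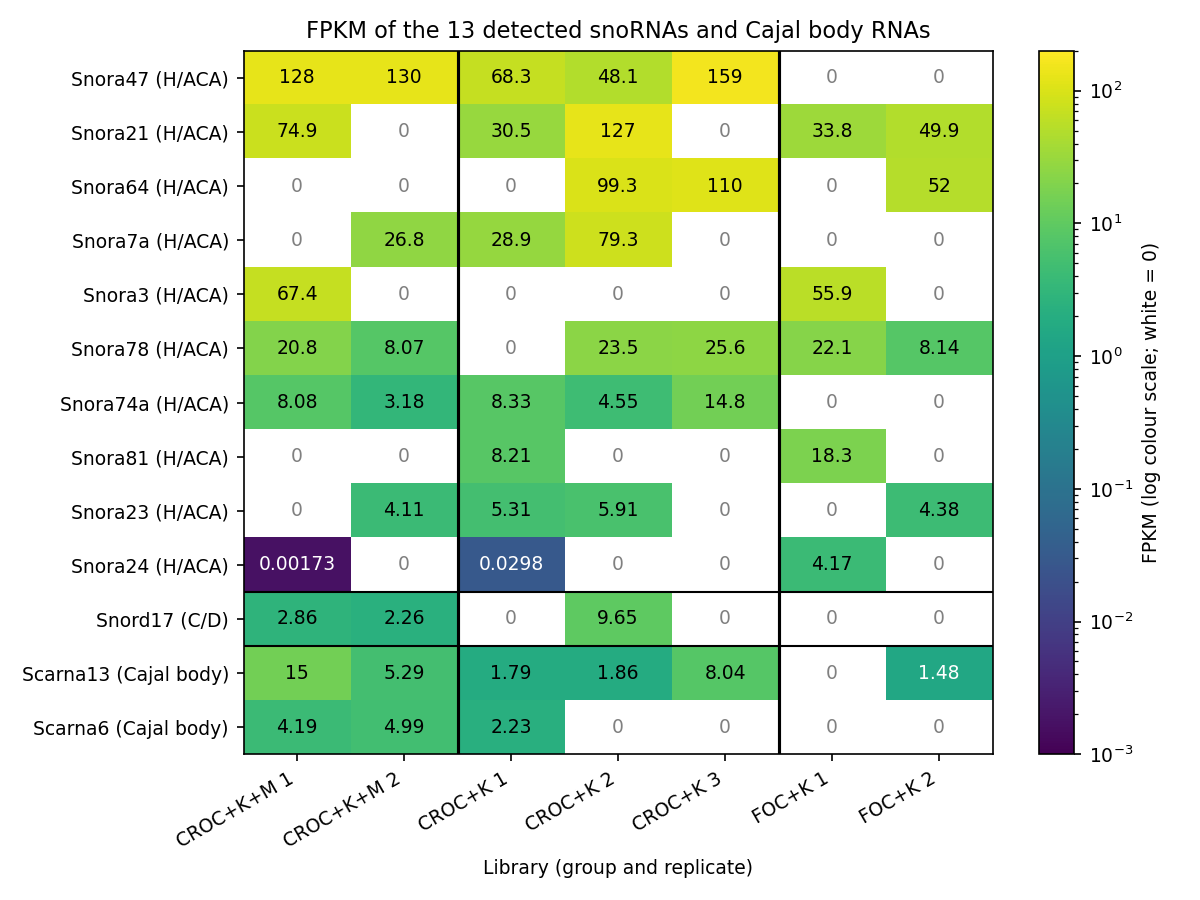
FPKM of the 13 members (rows) in the 7 libraries (columns, CROC+K+M, CROC+K, then FOC+K), with the value printed in each cell, a log colour scale and white at 0. Snora47 and Snora74a are above 0 in all 5 libraries from cryopreserved oocytes and at 0 in both FOC+K libraries.

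Among the H/ACA members, Snora47 had the highest mean FPKM over the 7 libraries (76.1). It was at 128 and 130 FPKM in CROC+K+M, at 68.3, 48.1 and 159 FPKM in CROC+K, and was listed at 0 in both FOC+K libraries. All 5 libraries from cryopreserved oocytes were therefore above both FOC+K libraries, and the CROC+K+M values lay within the range of CROC+K. In units of its smallest step the values were 2.95 and 3.7 in CROC+K+M and 1.44, 1 and 3.09 in CROC+K. If a step is 1 fragment, a count of 0 allows up to 3, which would be 164 FPKM in FOC+K 1 and 119 FPKM in FOC+K 2, counting error only. Snora47 lies in an intron of Zbed3, a gene of the maternal subcortical complex of the egg.

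Snora74a, which guides pseudouridylation of large-subunit ribosomal RNA in humans, had the same pattern at lower FPKM. It was at 8.08 and 3.18 FPKM in CROC+K+M, at 8.33, 4.55 and 14.8 FPKM in CROC+K, and was listed at 0 in both FOC+K libraries. In steps, that is 2.06 and 1 in CROC+K+M and 1.94, 1.04 and 3.19 in CROC+K, and a count of 0 allows up to 14.8 FPKM in FOC+K 1 and 10.8 FPKM in FOC+K 2. Over the whole table, 4 of 17219 rows above 0 in 2 or more libraries were above 0 in all 5 libraries from cryopreserved oocytes and in neither FOC+K library (0.0232%). Besides these 2 members, they were 1700047E10Rik and Syde1, which were picked out after their values were seen. Among the 1067 rows above 0 in exactly 5 libraries the share was 0.375%, and of the 3 members above 0 in 5 libraries 2 had the pattern.

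Snora21, also a guide for large-subunit ribosomal RNA in humans, did not follow the groups. It was at 74.9 and 0 FPKM in CROC+K+M, at 30.5, 127 and 0 FPKM in CROC+K, and at 33.8 and 49.9 FPKM in FOC+K. A further small RNA transcript, Gm23795, is at least 90% identical to it over at least 90% of its length, and so its fragments could be shared between the 2 rows. The same holds for Snora3 with Gm24698 and for Snora81 with Gm22519.

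Snora64 was at 0 in both CROC+K+M libraries, at 0, 99.3 and 110 FPKM in CROC+K, and at 0 and 52.02 FPKM in FOC+K. Snora7a was at 0 and 26.8 FPKM in CROC+K+M, at 28.9, 79.3 and 0 FPKM in CROC+K, and at 0 in both FOC+K libraries. Both guide modification of large-subunit ribosomal RNA in humans, and both were missing from at least 1 library of every group. Snora78 was above 0 in 6 libraries, at 20.8 and 8.07 FPKM in CROC+K+M, 0, 23.5 and 25.6 FPKM in CROC+K, and 22.1 and 8.14 FPKM in FOC+K. Its groups overlapped.

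Snora23 had 0 and 4.11 FPKM in CROC+K+M, 5.31, 5.91 and 0 FPKM in CROC+K, and 0 and 4.38 FPKM in FOC+K, each value above 0 at about 1 step. Snora24, which guides modification of small-subunit ribosomal RNA in humans, had 0.00173 and 0 FPKM in CROC+K+M, 0.0298, 0 and 0 FPKM in CROC+K, and 4.17 and 0 FPKM in FOC+K. All its values above 0 lie below 1 step of rows of like length, the 4.17 FPKM in FOC+K 1 included. In that library 1 step was 33.2 FPKM for Snora7a (129 bases) and 33.8 FPKM for Snora21 (128 bases), against 130 bases for Snora24. Snora24 was the member that did not pass the filter for the test (FPKM of at least 1 in 2 or more libraries).

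The members just inside the rule were Snora3 and Snora81, each above 0 in 2 libraries. Snora3 had 67.4 FPKM in CROC+K+M 1 and 55.9 FPKM in FOC+K 1. Snora81 had 8.21 FPKM in CROC+K 1 and 18.3 FPKM in FOC+K 1. Just outside it, 5 H/ACA and 2 C/D rows were above 0 in 1 library. Snora33, the shortest of them at 105 bases, had 398 FPKM in CROC+K+M 2, the highest value of any row of these classes. Snora34 and Snora28 had 47.9 and 38.3 FPKM in FOC+K 2, and Snora52 and Snord22 had 29.8 and 48.1 FPKM in CROC+K 2.
Snora47 and Snord22, both of 126 bases, held the same value in CROC+K 2 (48.0633 FPKM), and Snora70 and Snora7a, both of 129 bases, held the same value in CROC+K+M 2 (26.8019 FPKM).

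Snord17, a guide for ribose methylation of large-subunit ribosomal RNA in humans, was the C/D member. It was at 2.86 and 2.26 FPKM in CROC+K+M, at 0, 9.65 and 0 FPKM in CROC+K, and at 0 in both FOC+K libraries.

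Of the Cajal body members, Scarna13 was above 0 in 6 libraries and held the most steps. It was at 14.97 and 5.29 FPKM in CROC+K+M, at 1.79, 1.86 and 8.04 FPKM in CROC+K, and at 0 and 1.48 FPKM in FOC+K. The CROC+K+M and CROC+K libraries were all above both FOC+K libraries, while CROC+K+M and CROC+K overlapped. The 2 lowest CROC+K values and that of FOC+K 2 were each about 1 step (1.01, 1.04 and 1), whereas CROC+K+M held 9.24 and 4.04 steps. Scarna6 was at 4.19 and 4.99 FPKM in CROC+K+M, at 2.23, 0 and 0 FPKM in CROC+K, and at 0 in both FOC+K libraries. Both CROC+K+M libraries were above all 5 others.

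The first comparison, CROC+K against FOC+K, sets embryos from cryopreserved oocytes against those from fresh ones. Snora47 was higher in CROC+K and passed the test (adjusted p = 0.0205, limma on log2(FPKM + 1) over 12295 rows, 12 of them members), and no other member passed. It was the 1 row called in the whole table (0.00813% of rows higher and 0% lower), while 272 rows had an unadjusted p under 0.05, 2 of them members. No fold change is given, since FOC+K was listed at 0. Snora47 met the member rule and the filter only through libraries from cryopreserved oocytes. Its zeros in FOC+K add no spread, so its p does not measure how FOC+K pools vary and depends on the value set for 0. The call was lost when any of these libraries was left out singly, with a limma adjusted p of 0.383 without FOC+K 1, 0.195 without FOC+K 2, 0.124 without CROC+K 1, 0.0581 without CROC+K+M 1 and 0.0589 without CROC+K+M 2. It was also lost with a term for the 3 libraries with high Rn45s, CROC+K 1 and both FOC+K (limma adjusted p = 0.526), with no filter on low values (0.151), with the replicate number as a block (0.104), and with a pseudocount of 50, about the FPKM of 1 step (1).

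Snora74a had an unadjusted limma p of 0.000399 and an adjusted p of 0.9996 in CROC+K against FOC+K. Scarna13 differed by 1.40 ± 0.70 (log2 fold change, SE; limma adjusted p = 0.9996). In the other direction, Snora3 was listed at 0 in CROC+K, and Snora81 differed by -1.07 ± 1.37 (limma adjusted p = 0.9996 for both). The Snora81 difference was -3.21 without FOC+K 2, -0.53 without CROC+K 2 or CROC+K 3, and 1.07 with the term for high Rn45s. It was -1.64 with a pseudocount of 0.1 and -0.15 with 50. Snora64 (1.62 ± 2.28), Snora23 (0.60 ± 1.13), Snora78 (-0.74 ± 1.37) and Snora21 (-1.40 ± 2.26) had standard errors that exceeded their log2 differences. Snora7a, Snord17 and Scarna6 were listed at 0 in FOC+K (limma adjusted p = 0.9996 for each). The groups did not overlap in 3 of 12 tested members, Snora47, Snora74a and Scarna13, all higher in CROC+K, against 9.68% of all rows, and in 0 members lower, against 9.45%. For Scarna13 the gap was slight after scaling to depth. CROC+K 1, CROC+K 2 and FOC+K 2 each held about 1 step (1.01, 1.04 and 1). CROC+K 3 held 4.19 steps and FOC+K 1 was at 0, and the part of depth was not tested. In detection, 2 of 13 members were above 0 in every CROC+K library and in no FOC+K library (0.0871% of rows), and 0 the other way round (1.75%). Without FOC+K 2 these counts were 3, with Scarna13 added, and 1, Snora3. Without CROC+K 3 they were 3, with Snora7a added, and 0. Members at 0 in FOC+K met the rule only through the 5 libraries from cryopreserved oocytes. The share of rows also counts rows above 0 in all libraries, which cannot show the pattern. The detection counts, and the overlap count that holds Snora47 and Snora74a, are thus a description and no finding.

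The second comparison, CROC+K+M against CROC+K, sets melatonin-treated embryos against untreated ones from the same kind of oocyte. No member was called, nor was any row (0% in each direction, limma), while 1276 rows and 1 member, Scarna6, had an unadjusted p under 0.05. Scarna6 differed by 1.91 ± 0.56 on the log2(FPKM + 1) scale (SE; limma unadjusted p = 0.00996, adjusted p = 0.41), and its groups did not overlap. In steps it held 2.05 and 3.02 in CROC+K+M and 1, 0 and 0 in CROC+K. Scarna6 met the member rule and the filter only with CROC+K+M libraries counted, so its lack of overlap is a description and no finding. It was the 1 tested member without overlap that was higher, against 12.3% of rows, and 0 were lower, against 11.2%. Scarna13 differed by 1.27 ± 0.70 (limma adjusted p = 0.556), by 0.60 without CROC+K+M 1, the library with the trophectoderm markers, and by 1.94 without CROC+K+M 2. Scarna6 differed by 2.02 without CROC+K+M 1 and by 1.81 without CROC+K+M 2. With pseudocounts of 0.1 and 50 the difference was 4.03 and 0.11 for Scarna6, and 1.54 and 0.16 for Scarna13. These sizes thus depend on the value added to the FPKM. Snora47 differed by 0.67 ± 0.48 (limma adjusted p = 0.637) and Snora74a by -0.60 ± 0.54 (0.706). The Snora74a difference was -1.16 without CROC+K+M 1, -0.04 without CROC+K+M 2, -0.98 without CROC+K 2 and -0.22 without CROC+K 3. Snora64 (limma adjusted p = 0.528) and Snora81 (0.803) were listed at 0 in CROC+K+M, and Snora3 (0.612) in CROC+K. Standard errors exceeded the log2 differences of Snora78 (0.70 ± 1.37), Snora21 (-0.87 ± 2.26), Snora7a (-1.34 ± 1.95), Snora23 (-0.64 ± 1.13) and Snord17 (0.69 ± 0.98). No member was above 0 in every library of one group and in none of the other, against 0.941% of rows for CROC+K+M and 0.354% for CROC+K, but Scarna6 was so in CROC+K+M and Snora64 in CROC+K with CROC+K 1 left out, Snord17 in CROC+K+M with CROC+K 2 left out, and Snora3 in CROC+K+M with CROC+K+M 2 left out.

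The third comparison, CROC+K+M against FOC+K, shares its FOC+K libraries with the first and so is no second look at them. Snora47 was higher in CROC+K+M and was again the 1 row called (limma adjusted p = 0.0192, 0.00813% of rows higher and 0% lower), while 797 rows and 4 members had an unadjusted p under 0.05. As in the first comparison, the zeros of Snora47 in FOC+K add no spread to this p. The call was lost without FOC+K 1 (limma adjusted p = 0.147), FOC+K 2 (0.298), CROC+K 1 (0.0769) or CROC+K+M 1 (0.204), with no filter (0.143), with the term for high Rn45s (0.456) and with a pseudocount of 50 (0.737). Snora74a had a limma adjusted p of 0.733, and of 0.0431 without CROC+K+M 2. In that last fit 527 of 12061 rows were called (4.37%), and the 1 CROC+K+M library left, that with the trophectoderm markers, is assumed to vary like the other groups. Of the members listed at 0 in FOC+K, Scarna6 had a limma adjusted p of 0.733, Snord17 of 0.791 and Snora7a of 0.843, and Scarna13 differed by 2.67 ± 0.77 (log2 fold change, SE; limma adjusted p = 0.733). Towards lower values, Snora81 (limma adjusted p = 0.815) and Snora64 (0.842) were at 0 in CROC+K+M. Snora21 differed by -2.27 ± 2.47, Snora78 by -0.05 ± 1.5, Snora23 by -0.04 ± 1.24 and Snora3 by 0.13 ± 2.2.
The groups did not overlap in 5 of 12 tested members, all higher in CROC+K+M, against 21.3% of rows, and in 0 lower, against 19.7%. They were Snora47, Snora74a, Scarna13, Scarna6 and Snord17. Of 13 members 4 (these without Scarna13) were above 0 in both CROC+K+M libraries and in no FOC+K library, against 0.621% of rows, and 0 the other way round, against 3.28%. Without CROC+K+M 1 these counts were 5, with Snora7a added, and 1, Snora21. Without FOC+K 2 they were 5, with Scarna13 added, and 1, Snora81, and without FOC+K 1 they were 4 and 1, Snora64. Here too the members at 0 in FOC+K met the rule only through libraries from cryopreserved oocytes. The share of rows counts rows above 0 in all libraries, so these detection counts are a description and no finding. The overlap count is likewise a description, as 4 of its 5 members were at 0 in FOC+K. Snora47, the 1 member past the test, was at 0 in FOC+K libraries with 1183 and 1047 FPKM of Rn45s. It was at 68.3 FPKM in CROC+K 1, where Rn45s was at 2114 FPKM. That value is 1 library at 1.44 steps, and the part of Rn45s in the values of Snora47 was not tested.

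Host genes were all tested and none passed in any comparison (0 of 13, limma), with 0, 2 and 4 of them at an unadjusted p under 0.05 in the order of the comparisons above. In CROC+K against FOC+K 8 were higher and 5 lower, with a median log2 difference of 0.24 against -0.03 over all rows. In CROC+K+M against CROC+K 11 were higher and 2 lower (median 0.38 against 0.06), and in CROC+K+M against FOC+K 9 were higher and 4 lower (0.78 against 0.04). Of all 12295 rows, 5824, 6645 and 6501 were higher in the order of the comparisons. The ribosomal protein hosts were higher in CROC+K+M 1, the library with the trophectoderm markers, than in CROC+K+M 2. These were Rps2 (507 and 126.5 FPKM), Rpl23 (622 and 215), Rpl27a (158 and 103) and Rpl32 (1759 and 620). Eif4a2 (131.7 and 72.9), Snhg4, Snhg8, Snhg9 and Snx5 were also higher there, while Snhg10, Zbed3, Ipo7 and Atg16l1 went the other way. The FPKM of all rows summed to 1017995 in CROC+K+M 1 and 726297 in CROC+K+M 2. Zbed3, host of Snora47, was at 1565 and 1666 FPKM in CROC+K+M, 3744, 2589 and 2529 FPKM in CROC+K, and 2926 and 3672 FPKM in FOC+K. Zbed3 was abundant in FOC+K, where Snora47 was at 0, and differed by -0.17 ± 0.30 in CROC+K against FOC+K (limma adjusted p = 0.9996), by -0.85 ± 0.30 in CROC+K+M against CROC+K (0.43) and by -1.02 ± 0.33 in CROC+K+M against FOC+K (0.733).

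Snhg10, the noncoding host of Scarna13, was at 28.6 and 33.0 FPKM in CROC+K+M, 8.49, 10.97 and 17.3 FPKM in CROC+K, and 11 and 15.1 FPKM in FOC+K. Both CROC+K+M libraries were above all 5 others, by 1.31 ± 0.36 against CROC+K (log2, SE; limma adjusted p = 0.41) and by 1.19 ± 0.39 against FOC+K (0.733). Snhg4, whose RefSeq span holds Snora74a, was at 24.8 and 18.2 FPKM in CROC+K+M, 15.03, 12.7 and 13.1 FPKM in CROC+K, and 9.48 and 14.0 FPKM in FOC+K. Its CROC+K+M libraries were above all 5 others, by 0.61 ± 0.31 against CROC+K (limma adjusted p = 0.523) and by 0.83 ± 0.34 against FOC+K (0.756), while CROC+K against FOC+K gave 0.22 ± 0.31 (0.9996). Among all rows tested, 12.3% were higher in CROC+K+M without overlap with CROC+K, and 21.3% without overlap with FOC+K.
By the annotation of build GRCm38, the members lie in the introns of Rpl23 (Snora21), Ipo7 (Snora23), Snhg9 (Snora78), Snx5 (Snord17) and Atg16l1 (Scarna6). Snora64 in Rps2, Snora3 in Rpl27a, Snora81 in Eif4a2 and Snora24 in Snhg8 lie in an intron that a retained-intron transcript includes, and Snora7a in Rpl32 is intronic or exonic by isoform. An unspliced host RNA holds the same letters, and whether a fragment came from the mature RNA or from its precursor was not tested. Rps2, Rpl23, Rpl27a and Rpl32 encode ribosomal proteins, and Eif4a2 a translation initiation helicase.

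**Figure D4:**
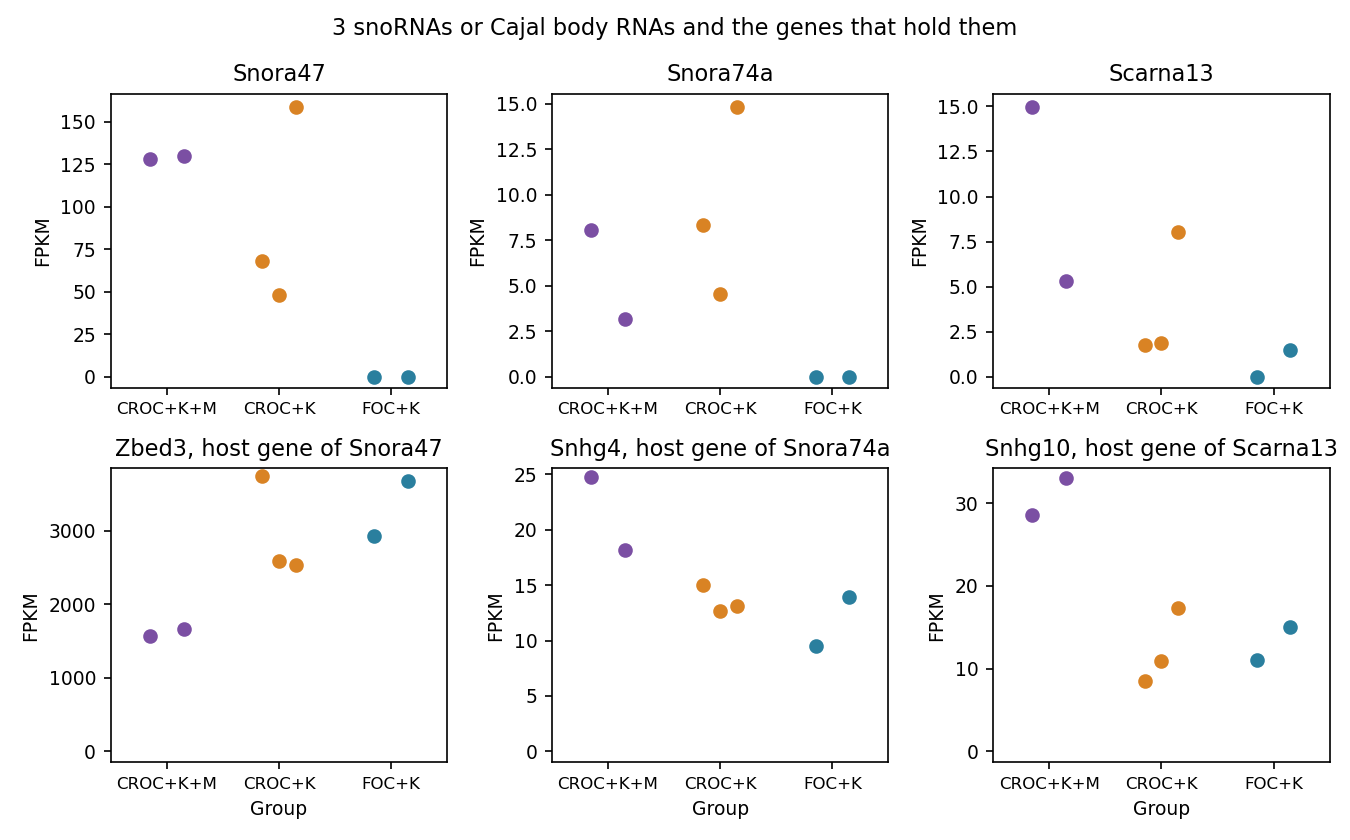
FPKM (y axes) of Snora47, Snora74a and Scarna13, above their hosts Zbed3, Snhg4 and Snhg10, with 1 point per library in the groups CROC+K+M, CROC+K and FOC+K (x axis). Zbed3 is at 2926 and 3672 FPKM in the FOC+K libraries, where Snora47 is at 0.

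The proteins that bind these RNAs were counted from lists of the C/D core, the H/ACA core, the assembly factors, and the Cajal body and trafficking factors. None of the 24 tested genes passed in any comparison (limma), with 1, 3 and 3 at an unadjusted p under 0.05 in the same order of comparisons. In CROC+K against FOC+K the C/D core had 3 genes higher and 1 lower (median log2 difference 0.20), and the H/ACA core had 3 higher and 1 lower (0.24). The assembly factors had 4 and 4 (-0.09) and the Cajal body factors 3 and 5 (-0.03), against a median of -0.03 over all rows. Nop56, a C/D core protein, had the smallest unadjusted p there (0.78 ± 0.31, SE, unadjusted p = 0.0357, limma adjusted p = 0.9996), at 95.4, 157 and 123 FPKM in CROC+K and 84.9 and 59.1 FPKM in FOC+K. The 2 groups of Nop56 did not overlap, which held in that direction for 9.68% of all rows tested. The C/D core protein Nop58 gave -0.18 ± 0.29, the H/ACA core proteins Nhp2 and Nop10 gave 0.79 ± 0.43 and 0.32 ± 0.29, the assembly helicases Ruvbl1 and Ruvbl2 gave 0.43 ± 0.27 and -0.71 ± 0.53, and Nolc1 and the export receptor Xpo1 gave 0.60 ± 0.32 and -0.43 ± 0.30.

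In CROC+K+M against CROC+K the C/D core had 3 higher and 1 lower (0.11), the H/ACA core 2 and 2 (0.17), the assembly factors 3 and 5 (-0.13) and the Cajal body factors 4 and 4 (0.04), against 0.06 over all rows. Nop10 was at 624 and 563 FPKM in CROC+K+M and 230, 341 and 380 FPKM in CROC+K, and differed by 0.93 ± 0.29 (limma adjusted p = 0.41). Its groups did not overlap, which held in that direction for 12.3% of all rows tested. Ruvbl2 differed by 1.62 ± 0.53 (0.418) and Nolc1, a nucleolar and Cajal body chaperone, by -0.81 ± 0.32 (0.457). Dkc1, the pseudouridine synthase, gave -0.31 ± 0.38, the methyltransferase Fbl gave 0.41 ± 0.29, Nop58 gave -0.51 ± 0.29, Pih1d1 gave 0.99 ± 0.52 and Phax gave 0.84 ± 0.63.

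In CROC+K+M against FOC+K the C/D core had 3 higher and 1 lower (0.46), the H/ACA core 2 and 2 (0.26), the assembly factors 5 and 3 (0.14) and the Cajal body factors 4 and 4 (-0.05), against 0.04 over all rows. Nop10 differed by 1.25 ± 0.32 (limma adjusted p = 0.733), Nop56 by 0.90 ± 0.34 (0.751) and Coil, the scaffold of Cajal bodies, by 0.92 ± 0.39 (0.756). Nop58 gave -0.69 ± 0.32, Nhp2 gave 0.67 ± 0.47, Pih1d1 gave 1.20 ± 0.57, Rpap3 gave -0.58 ± 0.33 and Xpo1 gave -0.36 ± 0.32.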

How the data were processed

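The authors deposited 1 table of FPKM, a level per transcript length scaled to the mapped fragments, for 24319 gene symbols and 7 libraries. Per the submitters' processing notes, mouse build mm9 was used, with R 3.3.2, Cuffnorm, Cufflinks 2.2.1 and STAR 2.5.2b. Which of these made the table, with what annotation, strand use and scaling, is not given in the sources used here. Since FPKM is no count, limma 3.58.1 (R 4.3.3) with an intensity trend was fitted on log2(FPKM + 1) to all 7 libraries by group (4 residual degrees of freedom) over 12295 rows with FPKM of at least 1 in 2 or more libraries. Small RNA rows were included. Tests were two-sided, adjusted by the Benjamini-Hochberg method over all rows with a threshold of 0.05; errors are standard errors, and the scale understates changes of low rows. Relative depth is the commonest ratio between libraries of values of 0.05 to 0.6 FPKM, held by 12.9% to 19% of 1003 to 2041 genes compared. Fold changes are not given where a group is listed at 0. The fit was also run on simulated data with normal noise around the row means. No group was set to 0 there and no fragment steps were used, so it does not bear on the calls of Snora47.

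Members, lists (8 lists, 60 genes, 59 in the table) and tests were chosen with earlier results of these data known, Snora47's included. Genes were named by a rule: the highest members of each class, those at the edge of the rule, those with a detection pattern, called rows, the smallest p in each direction, and hosts. Lengths are from RefSeq (GRCm38.p6), hosts and sequences from GENCODE M21, matched by symbol, and near-identical transcripts from BLAST 2.17.0. Python 3.11.15 was used with pandas 2.3.3 and matplotlib 3.10.9. Alternatives changed the pseudocount, filter, scaling, weights, covariates and libraries.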

Additional observations from a re-analysis of the deposited data

How the results depend on the processing

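If a step is 1 fragment, values above 0 of the members other than Snora24 rest on about 1 to 9 fragments a library. Those of Snora24 lie below 1 step of rows of like length. Zeros mean that an RNA was not detectable at this depth. The count of members called in CROC+K against FOC+K (1) became 0 with no filter, with the replicate block, with a term for the 3 libraries with high Rn45s and with a pseudocount of 50, an alternative chosen after seeing the data, and ranged over 0 to 1 when 1 library was left out. In CROC+K+M against FOC+K (1) it became 0 with no filter, the Rn45s term and the pseudocount of 50, and ranged over 0 to 2, the 2 from the fit without CROC+K+M 2, which called 527 of 12061 rows (4.37%). The adjusted p of Snora47 with 1 library left out ranged over 0.0171 to 0.383 in CROC+K against FOC+K and 0.0055 to 0.298 in CROC+K+M against FOC+K, where it was 0.0396 with the block. In CROC+K+M against CROC+K no alternative called a member, also without CROC+K+M 2, where 623 rows were called. A pseudocount of 0.1, a filter of 3 libraries, quantile scaling, equal FPKM sums and array weights kept both calls of Snora47.

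Members above 0 in every library of one group and none of the other, counted in both directions together, ranged over 2 to 4 (2 with all libraries) in CROC+K against FOC+K, 0 to 2 (0) in CROC+K+M against CROC+K and 4 to 6 (4) in CROC+K+M against FOC+K with 1 library left out, and 11 to 13 rows met the rule. With the Rn45s term Snora81 turned round, to 1.07 against -1.07 in CROC+K against FOC+K, and to an adjusted p of 0.884 in CROC+K+M against FOC+K, and the cause was not tested. Same-numbered libraries did not deviate together (correlations of -0.431 to 0.0202), so the numbers of the replicate block are not taken to pair them. Of the recomputed values of named members, 164 kept direction and side of the threshold, 16 lost the call, 1 gained it and 2 reversed.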
